A study of Homo sapiens with 5 samples.

Results

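Genes of mitosis and DNA replication were followed in parental HCC827 cells and in the gefitinib-resistant HCC827/GR cells derived from them. A fixed set of 54 genes was used, 30 with a role in mitosis and 24 with a role in DNA replication, and each was represented by the row of the deposited table that carries its symbol, or by the row with the highest mean where there were several. Of these, 51 had such a row among the 37181 genes or assembled loci of the table, 29 for mitosis and 22 for replication. CCNA2, RRM2 and FEN1 had none, and their transcripts lie in rows named for neighbouring genes, which are described apart.

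HCC827 is a human lung adenocarcinoma cell line whose EGFR gene carries a deletion in exon 19, and the growth of such cells depends on EGFR signalling, which gefitinib blocks. HCC827/GR cells were obtained from it by exposure to stepwise higher doses of gefitinib over more than 6 months, and they share the exon 19 deletion. The samples of the series are 3 RNA sequencing libraries of HCC827/GR cells (replicates 1, 2 and 3) and 2 of parental cells (replicates 2 and 3). The deposited table also has a column headed as parental replicate 1, which matched no sample and was not used. Neither the labels nor the methods say whether the resistant line is a single clone, whether gefitinib was present at harvest, or whether replicates were separate cultures, so the p-values measure only the spread between these libraries, which may be technical. Values are FPKM, fragments per kilobase of transcript scaled to the size of the library. The number of reads behind them is unknown, so no interval for counting error could be given.

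A dividing cell copies its DNA once in S phase and parts the copies in mitosis. Origins of replication are first loaded with the MCM helicase by the origin recognition complex, CDC6 and CDT1, and are then fired when CDC45 and the GINS complex join the helicase. Mitosis is started by cyclin B with CDK1 and by the PLK1 and Aurora kinases, chromosomes are held by the kinetochore and moved by kinesins, and the anaphase-promoting complex with CDC20 ends it by marking cyclin B and securin for destruction. Transcripts of S phase genes rise before those of mitotic genes, the former mainly under E2F factors and the latter mainly under the DREAM and MuvB complexes with MYBL2 and FOXM1, which act at a short promoter element called the cell cycle genes homology region, often next to CCAAT boxes. In a bulk library, fewer cells in a given phase and less RNA per cell cannot be told apart.

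The promoters of the members are shown because the letters of these elements are spread differently over the mitosis and the replication genes, and because the choice of members did not use them. RefSeq promoter windows on GRCh38.p14, from 250 bases before to 50 bases after the start, were found for 24 of the 29 mitosis genes and 20 of the 22 replication genes. AURKA, BIRC5, TPX2, TTK, UBE2C, MCM4 and MCM5 had no entry. The letters searched, on both strands, were TTTGAA or TTCGAA for the core of the cell cycle genes homology region, CCAAT for the CCAAT box, and TTTCCCGC, TTTGGCGC or TTTCGCGC for E2F-type sites. The homology region core was present in 17 of 24 mitosis promoters (70.8%) and in 2 of 20 replication promoters (10.0%), against 16.6% of all 27305 RefSeq promoters. E2F-type letters went the other way, with 3 of 24 (12.5%) and 13 of 20 (65.0%), against 2.79% of all promoters. A CCAAT box was in 20 of 24 and 14 of 20, or 83.3% and 70.0%, against 35.7%. A match of letters is a description and does not show that a factor binds there.

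For each set, the stretches of 150 bases before the start are printed for the 3 genes with the largest difference between the cell lines among those described in full, 5′ to 3′ on the strand of the gene, with every searched motif in capitals. They come from CENPA (chr2:26785906-26786055, plus strand), TOP2A (chr17:40417897-40418046, minus strand) and MKI67 (chr10:128126424-128126573, minus strand) for mitosis. The replication genes are GINS2 (chr16:85688955-85689104, minus strand), GINS1 (chr20:25407523-25407672, plus strand) and PRIM1 (chr12:56752324-56752473, minus strand). In MKI67 the last run of capitals is a homology region core that overlaps a CCAAT box on the opposite strand. Of the homology region letters of TOP2A, a copy lies upstream of the printed stretch and another crosses its first base, so neither is in capitals. The E2F-type letters of GINS1 lie downstream of the stretch.
CENPA: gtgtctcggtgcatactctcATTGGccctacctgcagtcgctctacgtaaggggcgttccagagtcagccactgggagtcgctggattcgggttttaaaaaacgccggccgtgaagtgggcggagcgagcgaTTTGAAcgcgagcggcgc
TOP2A: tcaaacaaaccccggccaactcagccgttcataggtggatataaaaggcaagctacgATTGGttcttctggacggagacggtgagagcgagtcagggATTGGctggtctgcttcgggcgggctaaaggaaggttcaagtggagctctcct
MKI67: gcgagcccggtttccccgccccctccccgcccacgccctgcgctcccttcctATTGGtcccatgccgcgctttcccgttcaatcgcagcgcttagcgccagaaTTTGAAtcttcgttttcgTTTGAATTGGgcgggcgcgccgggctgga
GINS2: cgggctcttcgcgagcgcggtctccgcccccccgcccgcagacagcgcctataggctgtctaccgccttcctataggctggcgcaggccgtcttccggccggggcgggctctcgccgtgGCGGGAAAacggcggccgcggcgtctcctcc
GINS1: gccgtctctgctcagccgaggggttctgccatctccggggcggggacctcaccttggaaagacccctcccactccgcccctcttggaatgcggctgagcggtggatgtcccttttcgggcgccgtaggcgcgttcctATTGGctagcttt
PRIM1: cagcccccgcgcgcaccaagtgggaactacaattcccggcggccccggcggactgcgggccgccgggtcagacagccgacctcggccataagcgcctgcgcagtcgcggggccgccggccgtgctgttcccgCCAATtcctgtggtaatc

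Most members had somewhat lower mRNA in HCC827/GR cells than in parental cells, but only TOP2A passed the test. The difference in log2(FPKM + 1), HCC827/GR minus parental, was below 0 in 44 of 51 members, compared with 49.8% of the 16189 genes or loci tested. Its median was -0.16 over the 29 mitosis genes and -0.35 over the 22 replication genes, against 0.0014 over all genes tested, and 23 of 29 and 21 of 22 were below 0. Every member reached the mean of 0.5 FPKM required for the test. With limma and Benjamini-Hochberg adjustment over all genes tested, 1 member was lower at an adjusted p under 0.05 and none was higher, whereas 5.71% of all genes were called lower and 5.26% higher. At an unadjusted p under 0.05, 11 members were lower and 1 was higher, where the backgrounds were 13.8% and 13.4%. On the scale of log2(FPKM + 1), no member reached a fold change of 2 with an unadjusted p under 0.05, though the ratio of the mean FPKM of GINS2 did (2.02). On the same scale the rule called 3.97% of all genes lower and 2.96% higher. The HCC827/GR and parental values did not overlap in 20 members, 18 of them lower in HCC827/GR cells (35.3%, against 23.4% of all genes) and 2 higher (background 22.8%).

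**Figure D1:**
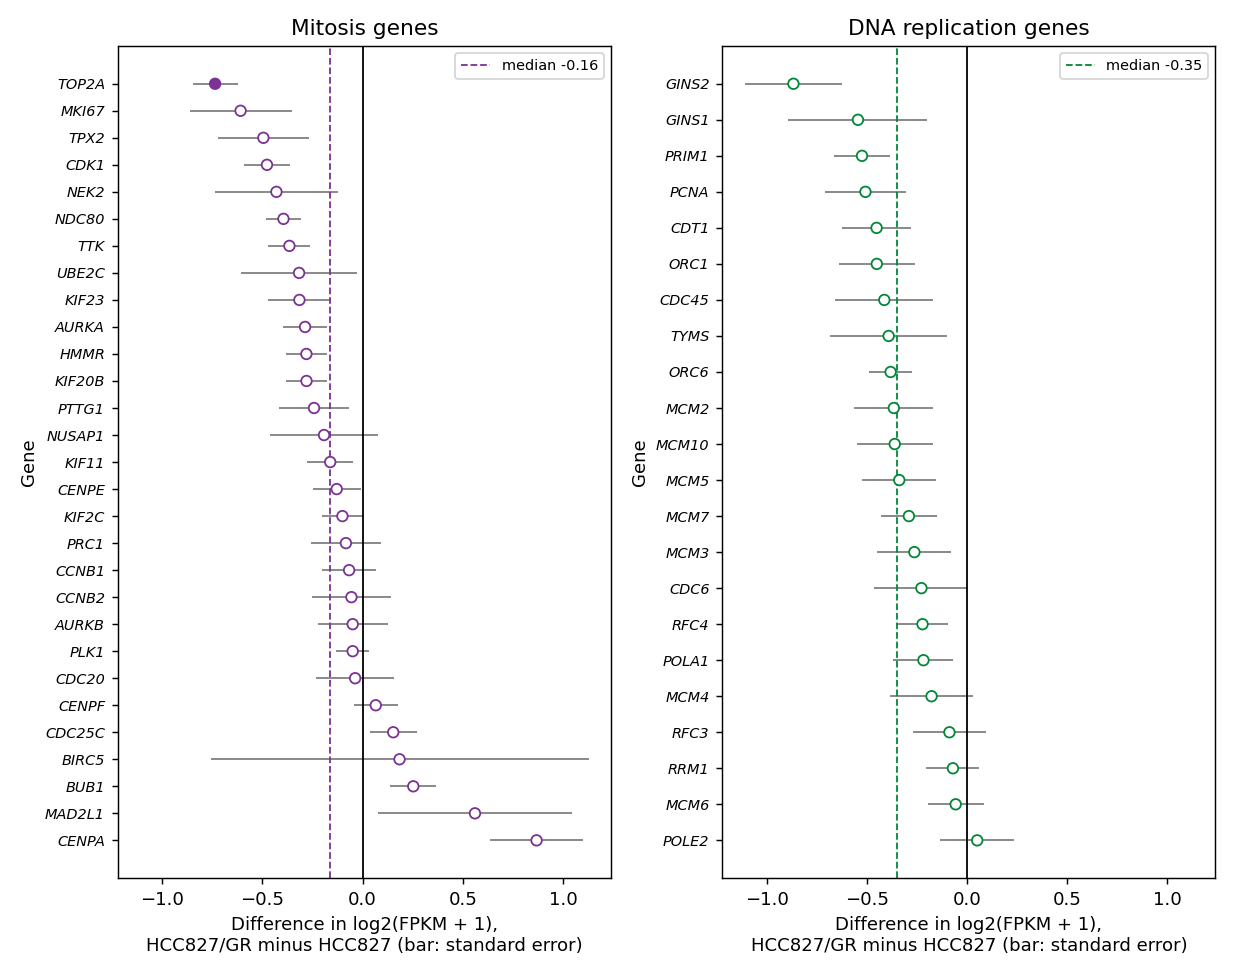
Difference in log2(FPKM + 1) between HCC827/GR and parental HCC827 cells for the 29 mitosis genes (left) and the 22 DNA replication genes (right), with bars for the standard error from limma and a dashed line at each median. Only TOP2A, drawn filled, had an adjusted p under 0.05, and the replication genes lie closer together and further below 0 (median -0.35) than the mitosis genes (median -0.16).

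The size of this difference depended on which parental library was used. Parental replicate 3 held the highest value of the 5 libraries in 35 of 51 members and in 19 of 22 replication genes (86.4%), against 20.6% of all genes tested. All 22 replication genes were higher in parental replicate 3 than in parental replicate 2, with a median gap of 0.41 on the log2 scale, while 48.5% of all genes were. Among the mitosis genes the same held for 21 of 29, with a median gap of 0.10. The gap between these libraries of the same cells was therefore wider for replication genes than the gap between the cell lines.

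Without parental replicate 3 the median of the replication genes was -0.10 and that of the mitosis genes -0.09, and 34 of 51 members were below 0. Without parental replicate 2 the medians were -0.56 and -0.22, and 45 of 51 were below 0. The median of the mitosis genes was also -0.073 without HCC827/GR replicate 2 and -0.29 without HCC827/GR replicate 3. Over all genes tested the share below 0 was 49.8% without parental replicate 3 and 50.7% without parental replicate 2. Parental replicate 3 lay above all 3 resistant libraries in 39 of 51 members (76.5%, against 34.1% of all genes). Parental replicate 2 did so in 19 of 51 (37.3%, against 34.7%) and in 7 of 22 replication genes (31.8%), which is near the background. The differences of 11 of the 51 members, namely CDK1, PLK1, AURKA, BUB1, TTK, NDC80, KIF20B, HMMR, TOP2A, ORC6 and PRIM1, stayed within 1.5 times of their value with any library left out. Those of the other 40 did not, and in 19 of the 22 replication genes the value was nearest to 0, or reversed, without parental replicate 3.

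**Figure D2:**
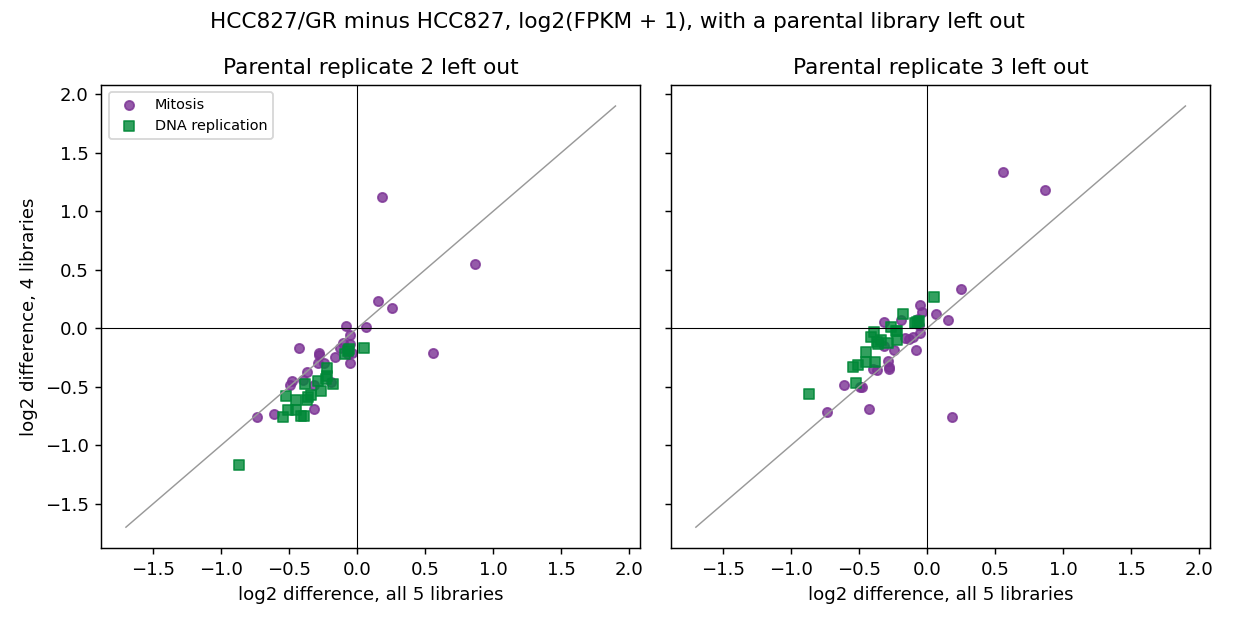
Difference in log2(FPKM + 1), HCC827/GR minus parental, of each member with all 5 libraries (horizontal axis) and with parental replicate 2 (left) or replicate 3 (right) left out (vertical axis), and a line of equal values. Leaving out replicate 2 moves the replication genes below the line (median -0.56), and leaving out replicate 3 moves them above it towards 0 (median -0.10).

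Described per library, most members were highest in the same resistant library, but the mitosis and replication genes differed in which library was most often lowest. HCC827/GR replicate 3 was the highest of the resistant libraries in 36 of 51 members (70.6%), against 31.2% of all genes. HCC827/GR replicate 2 was the lowest of all 5 libraries in 22 members (43.1%, against 18.9% of all genes). HCC827/GR replicate 1 was the lowest in 17 (33.3%, against 17.7%). The former was lowest in 15 of 29 mitosis genes and the latter in 11 of 22 replication genes. The median deviation of the replication genes from their mean over the libraries was -0.23, -0.18 and 0.04 in HCC827/GR replicates 1, 2 and 3 and -0.03 and 0.42 in parental replicates 2 and 3. For mitosis genes it was -0.0037, -0.16, 0.03, 0.04 and 0.18 in the same order. HCC827/GR replicate 3 thus lay above parental replicate 2 on replication genes and just below it on mitosis genes, so the cell lines overlapped for the former and came close for the latter.

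The mitosis and replication genes did not keep a fixed distance from each other. The mitosis median minus the replication median was 0.23 in HCC827/GR replicate 1, 0.02 in replicate 2 and -0.02 in replicate 3, and 0.07 and -0.24 in parental replicates 2 and 3. Parental replicate 2 falls inside the range of the resistant libraries, and parental replicate 3 alone lies below it. As differences between the cell lines, the medians of the mitosis and replication genes were 0.19 apart with all libraries, 0.34 without parental replicate 2 and 0.01 without parental replicate 3. Libraries of the same cells varied with a pooled SD of 0.16 on this measure, so the distance was close to the spread between libraries. A list of 9 reference genes, chosen as steadily expressed in most tissues, had 1 gene called, close to the 11.0% of all genes called in either direction. Its median log2 difference was -0.10, with VPS29 called lower (-0.49, adjusted p = 0.0367 from limma), a call lost with any library left out, and the median turned to 0.22 without HCC827/GR replicate 1 and 0.14 without parental replicate 3. It had median deviations of -0.11, -0.04 and 0.11 in HCC827/GR replicates 1, 2 and 3 and of -0.05 and 0.10 in parental replicates 2 and 3. HCC827/GR replicate 3 and parental replicate 3 were the high libraries of this list, with a larger deviation in HCC827/GR replicate 3 than either group of members had. The part of this in the result was not tested. The median over all genes tested stayed between -0.0079 and 0.03 in each library.

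**Figure D3:**
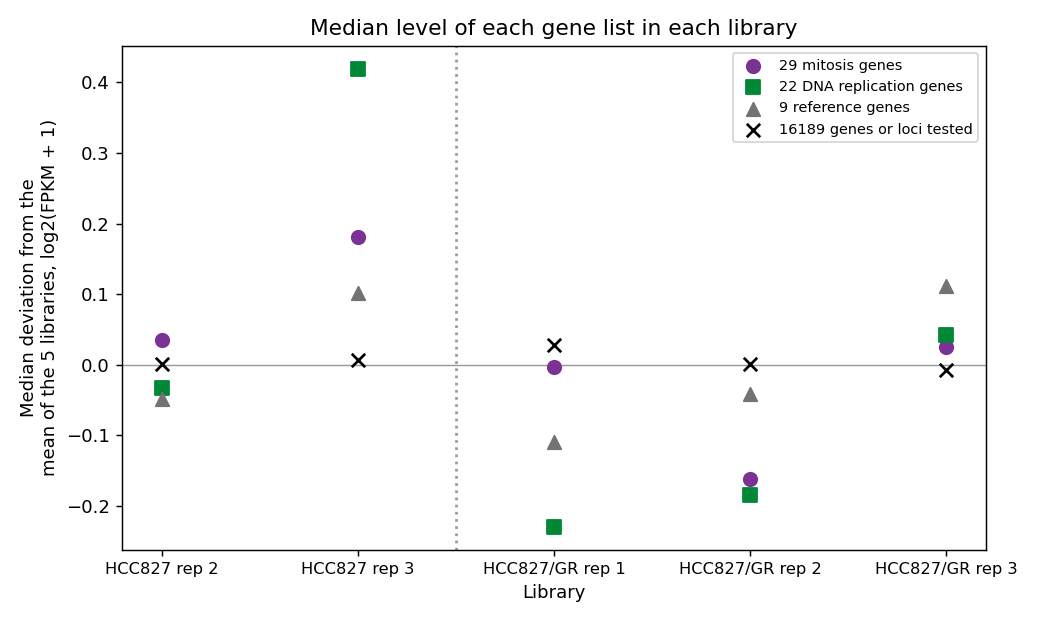
Median deviation from the mean of the 5 libraries in log2(FPKM + 1) for the mitosis genes, the replication genes, 9 reference genes and all 16189 genes or loci tested, in each library. The replication genes reach 0.42 in parental replicate 3 and -0.23 in HCC827/GR replicate 1, while the median of all genes stays near 0.

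**Figure D4:**
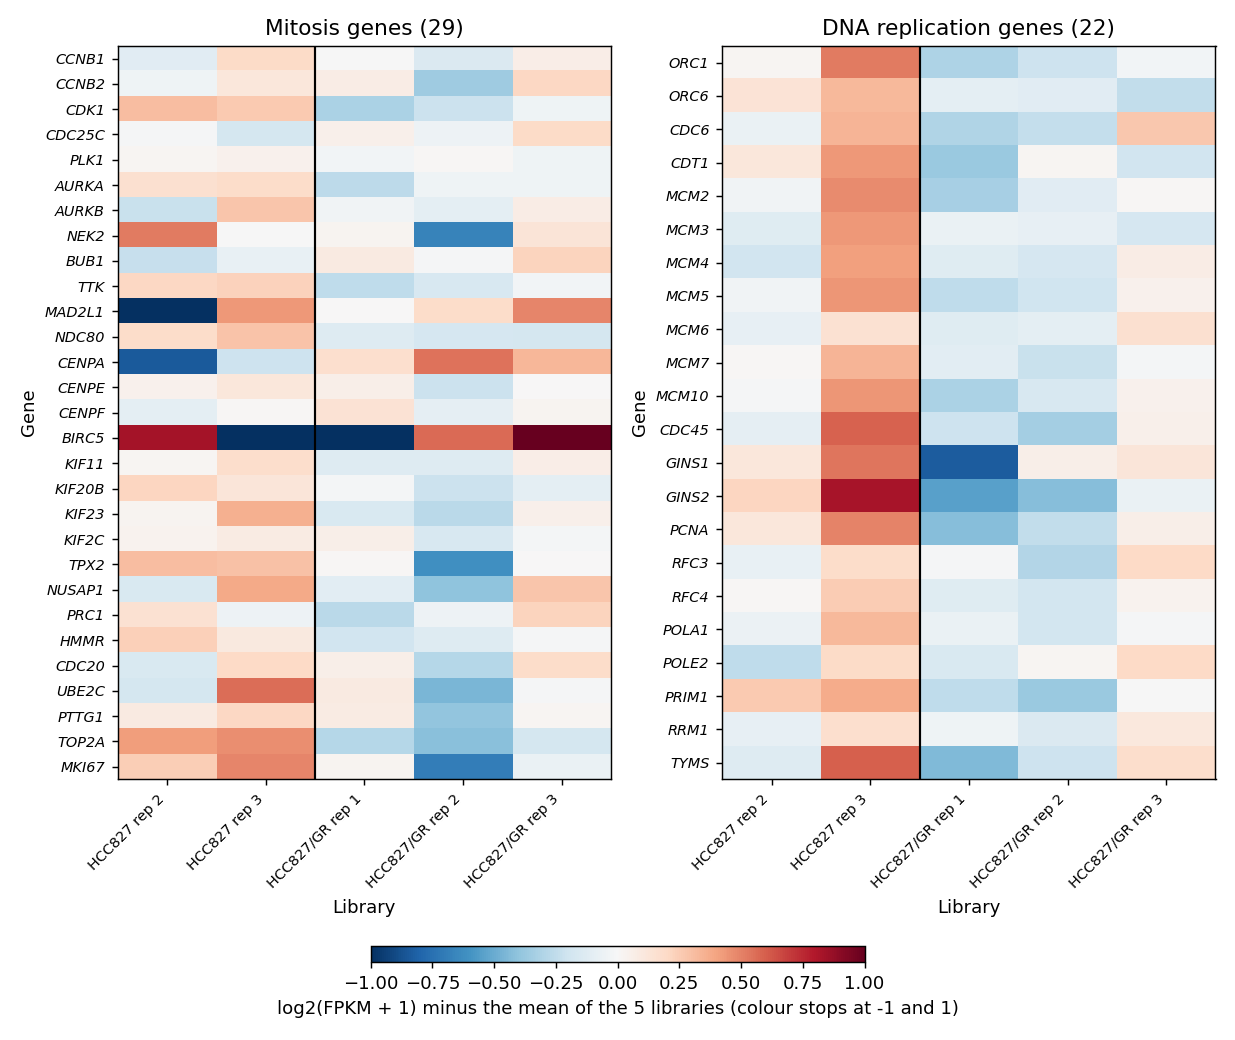
Each member (rows, mitosis left and DNA replication right) in each library (columns), as log2(FPKM + 1) minus its mean over the 5 libraries, red above and blue below, with colours held at -1 and 1. The column of parental replicate 3 is red for all 22 replication genes, and MAD2L1, CENPA and BIRC5 stand out by their spread.

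Summed over the 51 members, FPKM was 1074, 991.2 and 1218 in HCC827/GR replicates 1, 2 and 3 and 1222 and 1455 in parental replicates 2 and 3. That is 0.640%, 0.688% and 0.785% of all FPKM in the resistant libraries and 0.880% and 0.898% in the parental ones. The resistant libraries were below the parental ones on both scales, although the sums of HCC827/GR replicate 3 and parental replicate 2 were nearly the same. As a share of the FPKM of protein-coding genes the members took 0.960%, 0.894% and 1.07% in HCC827/GR cells and 1.12% and 1.28% in parental cells. Protein-coding genes themselves held 66.7%, 76.9% and 73.6% of the FPKM in the resistant libraries and 78.5% and 70.3% in the parental libraries.

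TOP2A encodes DNA topoisomerase II alpha, which untangles sister chromatids, and lies on chromosome 17 of GRCh38 from 40388516 to 40417950. Its expression was 92.6, 84.2 and 100.2 FPKM in resistant replicates 1, 2 and 3 and 151.5 and 156.7 FPKM in parental replicates 2 and 3. The groups lay far apart and the parental libraries were close to each other. The means were 92.3 ± 7.96 (SD, n = 3) and 154.1 ± 3.68 FPKM (SD, n = 2), and TOP2A fell by 0.74 on the log2 scale (standard error 0.11, adjusted p = 0.0246 from limma). An exact permutation test over the libraries, two-sided, gave p = 0.1, the smallest that 3 libraries against 2 allow. The call was kept without HCC827/GR replicate 3 (log2 difference -0.80, adjusted p = 0.0456) and lost with any other library left out. The adjusted p from limma was 0.0928, 0.0665, 0.103 and 0.101 without HCC827/GR replicate 1, HCC827/GR replicate 2, parental replicate 2 or parental replicate 3, with differences between -0.76 and -0.67. It was also lost with no filter on low values (adjusted p from limma 0.0665) and with the replicate number as a block (0.146). A Ballgown-like model lost it too (adjusted p = 0.247 from an ordinary t test). That model was a linear fit with the summed log2 values of each library as covariate. The study used Ballgown itself, which was not run here.

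MKI67 encodes Ki-67, the coat protein of mitotic chromosomes that is used as a marker of cycling cells. Its values were 17.3, 10.1 and 16.2 FPKM in the resistant libraries and 20.3 and 24.2 FPKM in parental replicates 2 and 3. Every resistant library lay below both parental ones, with HCC827/GR replicate 2 the lowest. The log2 difference was -0.61 (standard error 0.25), or -0.38 without that library, and the adjusted p of 0.213 from limma did not pass the threshold.

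**Figure D5:**
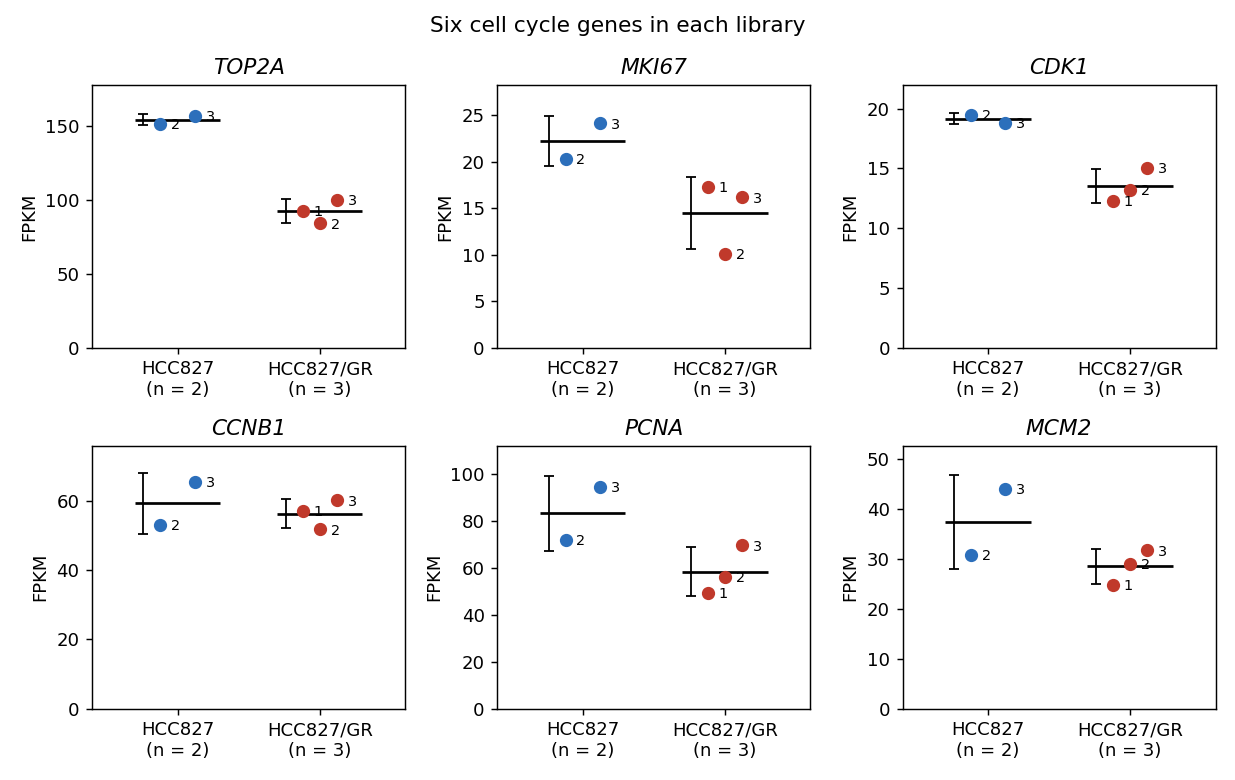
FPKM of TOP2A, MKI67, CDK1, CCNB1, PCNA and MCM2 in the 2 parental and 3 HCC827/GR libraries, numbered by replicate, with the mean as a line and the SD as a bar. TOP2A, MKI67, CDK1 and PCNA do not overlap between the cell lines, and CCNB1 and MCM2 do.

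Among the cyclins and mitotic kinases, 7 of 8 were below 0 with a median of -0.06, and none passed the test. With parental replicate 3 left out, 4 of 8 were below 0 (median -0.0070), and the median was -0.19 without parental replicate 2 and -0.14 without HCC827/GR replicate 3. CDK1, the kinase that drives entry into mitosis, had 12.3, 13.2 and 15.1 FPKM in resistant replicates 1, 2 and 3 and 19.5 and 18.8 FPKM in parental replicates 2 and 3. These values did not overlap, and the log2 difference was -0.48 (standard error 0.11, adjusted p = 0.0695). Its partner CCNB1, cyclin B1, had 57.1, 51.7 and 60.0 FPKM against 53.0 and 65.5 FPKM. The resistant values lay within or just below the parental ones and the log2 difference was -0.07 (standard error 0.14). CCNB2 (-0.06), PLK1 (-0.05) and AURKB (-0.05) were equally close to 0, AURKA was at -0.29 without overlap, NEK2 at -0.43 with overlap (-0.17 without parental replicate 2 and -0.69 without parental replicate 3), and the CDK1 phosphatase CDC25C at 0.15. The row of PLK1 also holds transcripts of its neighbour DCTN5.

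The kinetochore and spindle checkpoint genes were divided, with 3 of 8 below 0 and a median of 0.13. That sign rested on single libraries, since the median was -0.078 without parental replicate 2, -0.045 without HCC827/GR replicate 3, 0.015 without parental replicate 3 and 0.038 without HCC827/GR replicate 2. TTK, the checkpoint kinase also called MPS1, and NDC80, which couples kinetochores to microtubules, were lower without overlap, at -0.37 and -0.39 (adjusted p = 0.103 and 0.0563). BUB1, another checkpoint kinase, was at 0.25 and was higher in every resistant library. CENPF, the most abundant of the list, had 22.04, 18.6 and 20.2 FPKM in HCC827/GR cells and 18.5 and 20.1 FPKM in parental cells, which overlapped. CENPE was at -0.13.

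CENPA, the histone H3 variant that marks centromeres, had the largest difference upwards of all members. Its row read 16.6, 21.9 and 18.8 FPKM in resistant replicates 1, 2 and 3 and 7.81 and 12.6 FPKM in parental replicates 2 and 3. All resistant libraries were higher, and the log2 difference of 0.87 (standard error 0.23, adjusted p = 0.0875) missed the threshold. It was 0.55 without parental replicate 2. The table holds 4 rows under this symbol, and the one used also contains transcripts of the neighbouring gene SLC35F6, so the difference cannot be assigned to CENPA alone.

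BIRC5 and MAD2L1, singled out after their values were seen, varied more within a cell line than between the lines. BIRC5, which encodes survivin of the chromosomal passenger complex, had 1.93, 10.4 and 14.8 FPKM in HCC827/GR cells and 12.6 and 2.70 FPKM in parental cells. MAD2L1, the checkpoint protein MAD2, had 10.2, 11.6 and 14.6 FPKM in HCC827/GR cells against 4.16 and 14.1 FPKM. Each was low in 1 parental library and not in the other, BIRC5 was low in HCC827/GR replicate 1 too, and the cell lines overlapped for both.

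All 8 kinesins and spindle genes were below 0, with a median of -0.24 and none past the threshold. TPX2, which targets Aurora A to the spindle, had 88.5, 56.9 and 88.0 FPKM in resistant replicates 1, 2 and 3 and 108.5 and 107.3 FPKM in parental replicates 2 and 3. The groups did not overlap and HCC827/GR replicate 2 was far below the others, which gave a log2 difference of -0.50 (standard error 0.23, adjusted p = 0.251), or -0.29 without that library. The motors KIF23 (-0.32), KIF20B (-0.28), KIF11 (-0.16) and KIF2C (-0.10), and the microtubule binders HMMR (-0.28), NUSAP1 (-0.19) and PRC1 (-0.08) made up the rest. KIF20B and HMMR did not overlap between the groups.

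The 3 genes of the anaphase ubiquitin pathway were abundant and overlapped or nearly so. Their median was -0.24, but -0.094 without HCC827/GR replicate 2 and 0.052 without parental replicate 3, where 1 of 3 was below 0. CDC20, the activator of the anaphase-promoting complex and the member with the highest mean FPKM, had 126.6, 100.1 and 138.3 FPKM in HCC827/GR cells and 109.5 and 139.9 FPKM in parental cells. Its log2 difference was -0.04 (standard error 0.19). UBE2C, the ubiquitin-conjugating enzyme of the complex, had 36.2, 24.4 and 33.6 FPKM against 29.8 and 50.4 FPKM and a log2 difference of -0.32 (standard error 0.29). Here the parental libraries differed more from each other than the cell lines did. PTTG1, which encodes securin and has near-identical intronless copies with which reads could have been shared, was at -0.24.

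On the replication side, the 10 genes of origin licensing and the helicase were all below 0, with a median of -0.31. Leaving out parental replicate 3 gave 7 of 10 below 0 with a median of -0.11, and without parental replicate 2 the median was -0.51. CDT1, which brings the helicase to origins, had 7.995, 10.8 and 9.20 FPKM in resistant replicates 1, 2 and 3 and 11.6 and 14.7 FPKM in parental replicates 2 and 3. The groups did not overlap, and the log2 difference was -0.45 (standard error 0.17, adjusted p = 0.178), or -0.29 without parental replicate 3. MCM7, the most abundant helicase subunit here, had 38.0, 34.9 and 40.2 FPKM against 41.2 and 51.9 FPKM, a log2 difference of -0.29 (standard error 0.14, adjusted p = 0.264). MCM2 had 24.8, 28.96 and 31.7 FPKM against 30.8 and 44.0 FPKM, so that HCC827/GR replicate 3 lay above parental replicate 2.

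None of the 6 helicase subunits MCM2 to MCM7 passed the test, and differences between them were not tested. MCM2 and MCM5 were at -0.37 and -0.34, MCM7 and MCM3 at -0.29 and -0.26, MCM4 at -0.18 and MCM6 at -0.06. Each was higher in parental replicate 3 than in parental replicate 2. Without parental replicate 3, MCM3, MCM4 and MCM6 were at 0.01, 0.12 and 0.06, on the other side of 0, and MCM2, MCM5 and MCM7 at -0.11, -0.10 and -0.13. Of the loading factors, ORC1 (-0.45) and ORC6 (-0.38) did not overlap between the groups, and CDC6 (-0.23) did. ORC1 and CDC6 were at -0.20 and -0.024 without parental replicate 3.

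The origin firing genes had the lowest median of the replication lists, -0.48, and all 4 were below 0 with either parental library left out, with medians of -0.75 without replicate 2 and -0.23 without replicate 3. GINS2, a subunit of the GINS complex, had 4.03, 4.47 and 5.99 FPKM in resistant replicates 1, 2 and 3 and 7.54 and 11.98 FPKM in parental replicates 2 and 3. No resistant library reached a parental one, and the log2 difference of -0.87 was the lowest of all members (standard error 0.24, adjusted p = 0.0998). Its mean of 4.83 ± 1.03 FPKM (SD, n = 3) was 50.5% lower than the parental 9.76 ± 3.14 FPKM (SD, n = 2). GINS1 had 7.40, 14.6 and 15.2 FPKM against 15.2 and 20.7 FPKM, with HCC827/GR replicate 1 apart from the others, and a log2 difference of -0.54 (standard error 0.35). CDC45 and MCM10, which join and activate the helicase, were at -0.41 and -0.36, and both overlapped. With parental replicate 3 left out, GINS2, GINS1, CDC45 and MCM10 were at -0.56, -0.33, -0.075 and -0.13, and GINS1 was at -0.24 without HCC827/GR replicate 1.

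Among the polymerases, the clamp and its loader, 5 of 6 were below 0 with a median of -0.22. The median was -0.38 without parental replicate 2 and -0.063 without parental replicate 3, with 6 and 4 genes below 0. PCNA, the sliding clamp, had 49.4, 56.0 and 69.6 FPKM in resistant replicates 1, 2 and 3 and 72.0 and 94.5 FPKM in parental replicates 2 and 3. The groups did not overlap, although the highest resistant and the lowest parental library were close, and the log2 difference was -0.51 (standard error 0.20, adjusted p = 0.196), or -0.31 without parental replicate 3. PRIM1, the small primase subunit, had 9.09, 8.29 and 11.0 FPKM against 13.4 and 14.5 FPKM and a log2 difference of -0.52 (standard error 0.14, adjusted p = 0.0877), in a row that also holds transcripts of NACA. RFC4 (-0.22), POLA1 (-0.22) and RFC3 (-0.09) were nearer to 0 (-0.10, -0.025 and 0.041 without parental replicate 3), and POLE2, at 0.05, was the only replication gene above it.

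Of the enzymes of deoxynucleotide synthesis, TYMS, thymidylate synthase, had 28.2, 33.3 and 43.8 FPKM in HCC827/GR cells and 35.3 and 58.9 FPKM in parental cells. The values overlapped, and the log2 difference was -0.39 (standard error 0.29). It was -0.030 without parental replicate 3, -0.75 without parental replicate 2 and -0.25 without HCC827/GR replicate 1. RRM1, the large subunit of ribonucleotide reductase, was at -0.07. Only RRM1 and TYMS make up this list, and 1 of them was below 0 without parental replicate 3. The rows that join CCNA2 with BBS7, RRM2 with C2orf48 and FEN1 with FADS2 also overlapped between the cell lines. They read 9.26, 8.93 and 14.0 FPKM against 10.1 and 17.4 for CCNA2, 18.8, 32.9 and 43.6 against 33.8 and 33.0 for RRM2, and 6.70, 7.15 and 6.94 against 7.70 and 1.97 for FEN1, always with the resistant libraries first. With these rows added, the medians of the mitosis and replication genes were -0.18 and -0.31.

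Other genes of the same processes, listed by function, gave a like picture with some larger differences. Of 71 further mitosis genes tested, 56 were below 0 with a median of -0.23, 7 passed the test as lower and none as higher (background 5.71% and 5.26%), and 34 (47.9%, against 23.4% of all genes) did not overlap and were lower. KIF4A, a chromosome-bound kinesin, had 6.72, 5.39 and 6.88 FPKM in resistant replicates 1, 2 and 3 and 15.5 and 20.5 FPKM in parental replicates 2 and 3, and fell by 1.37 on the log2 scale (standard error 0.17, adjusted p = 0.0151). CENPI, of the inner kinetochore, fell by 0.98 (adjusted p = 0.0215), TROAP, a spindle-associated protein, by 0.83 (adjusted p = 0.0342) and CIT, citron kinase of cytokinesis, by 0.78 (adjusted p = 0.0283). Without parental replicate 3 this list had 47 of 71 genes below 0 and a median of -0.12. Without parental replicate 2 it had 61 below 0 and a median of -0.30. The calls were 0, 1 and 3 without HCC827/GR replicates 1, 2 and 3. Of all 16189 genes, 287, 409 and 477 were called lower in the same fits. Of the genes named here, KIF4A kept its call without HCC827/GR replicate 2 or 3 and CENPI and CIT without HCC827/GR replicate 3, while TROAP lost it with any library left out.

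Of 46 further replication genes, 33 were below 0 with a median of -0.20, and 2 passed the test as lower and none as higher, a share of calls below the background of 5.71% and 5.26%. Without parental replicate 3, 28 were below 0 with a median of -0.14, and without parental replicate 2 the median was -0.33. Without HCC827/GR replicates 1, 2 and 3 the calls were 0, 1 and 1, all lower, where 287, 409 and 477 of all 16189 genes were called lower. SLBP, which binds the end of histone mRNA, had 9.17, 9.33 and 13.8 FPKM in HCC827/GR cells and 25.9 and 21.4 FPKM in parental cells and fell by 1.08 on the log2 scale (standard error 0.21, adjusted p = 0.0421). TIMELESS, of the fork protection complex, had 9.19, 8.26 and 9.02 FPKM against 14.0 and 17.04 FPKM and fell by 0.75 (standard error 0.12, adjusted p = 0.0276). In both genes every resistant library lay below every parental one. SLBP kept its call without HCC827/GR replicate 3, and TIMELESS lost it with any library left out. The 15 homologous recombination and Fanconi genes had 13 below 0 and a median of -0.18, and the 14 genes of the anaphase-promoting complex had 9 below 0 and a median of -0.13. Neither list had a gene past the threshold. Without parental replicate 3 the anaphase-promoting complex turned to 5 of 14 below 0 and a median of 0.12, and the recombination genes had a median of -0.083. Without parental replicate 2 the medians were -0.22 and -0.31, and without HCC827/GR replicate 1 that of the complex was -0.084.

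The transcription regulators of the cycle had 12 of 18 below 0 and a median of -0.13, with none past the threshold. The median was -0.063 without parental replicate 3, -0.15 without parental replicate 2 and -0.073 without HCC827/GR replicate 1. FOXM1, an activator of mitotic genes, had 20.6, 20.3 and 36.3 FPKM in resistant replicates 1, 2 and 3 and 34.2 and 45.6 FPKM in parental replicates 2 and 3, and HCC827/GR replicate 3 was above parental replicate 2. MYBL2, its partner on these promoters, had 37.5, 38.7 and 42.9 FPKM against 46.0 and 75.3 FPKM, without overlap. The log2 differences were -0.65 (standard error 0.31, adjusted p = 0.261) and -0.56 (standard error 0.23, adjusted p = 0.205). E2F1, an activator of replication genes, was at -0.41 (standard error 0.27), and RB1, the retinoblastoma protein that restrains E2F, at 0.35 (standard error 0.21), and both overlapped between the groups. With parental replicate 3 left out, MYBL2 was at -0.21 and E2F1 at -0.092, and with parental replicate 2 left out they were at -0.91 and -0.72. RB1 was at 0.54 without HCC827/GR replicate 3.

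Markers of the cell type were checked as well. Of 8 listed markers of carcinoma epithelial cells, 6 had a row and 5 reached the mean required for the test. All 5 were below 0, and 4 were called lower, against 5.71% of all genes. EPCAM, KRT8, KRT18 and KRT19 were present in every library. The others listed were KRT7 and the lung markers NKX2-1, NAPSA and SFTPB, whose values are not given here. EPCAM had 7.32, 10.8 and 8.53 FPKM in HCC827/GR cells and 86.9 and 72.6 FPKM in parental cells. EPCAM, KRT18 and KRT19 passed the test as lower in HCC827/GR cells, and KRT8 did not (log2 difference -0.75, adjusted p = 0.101). Their part in the values of the members was not tested. Of 8 leukocyte and endothelial markers with a row, PTPRC, MS4A1, CD14, LYZ, VWF and CDH5 had a mean below 0.5 FPKM, and the list summed to 34.9, 33.0 and 38.3 FPKM in HCC827/GR cells and 35.6 and 42.6 FPKM in parental cells. Most of this was the row of CD68, the most abundant of the list, which also holds transcripts of EIF4A1 and other neighbours. PECAM1 was listed at 0 in the resistant libraries and had 4.34 and 3.32 FPKM in the parental ones. It was called lower (log2 difference -2.26, adjusted p = 0.0039 from limma). PTPRC, the defining marker of leukocytes, was at or below 0.0228 FPKM in each library.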

How the data were processed

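The authors deposited FPKM values, 1 per gene or assembled locus and library, estimated by StringTie and Ballgown from reads cleaned by Cutadapt and placed on the genome by TopHat2 with Bowtie2. The submitters' processing notes name the build hg18. The table holds no coordinates, and 135164 of its 135299 transcript identifiers were found in GENCODE release 29 (GRCh38), from which positions and joined rows were taken. The labels describe a small-RNA kit and the methods a kit for mRNA after removal of ribosomal RNA. Tool versions are not given in the sources used here. The table holds 1 further FPKM column, headed as parental replicate 1 (GS_1), that matched no sample and was not used. Whether the study's own comparison used it is not stated. Read counts cannot be had from these values, and depth is unknown.

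HCC827/GR was compared with HCC827 by limma 3.58.1 in R 4.3.3 (a two-sided moderated test with a mean-variance trend). The values were log2(FPKM + 1) of the 16189 rows that averaged 0.5 FPKM or more, with Benjamini-Hochberg adjustment over all of them, and calls used an adjusted p under 0.05. This scale understates changes of low genes. Lists were described by counts and medians, without a test. Tried in place of these were 0.1 as pseudocount, a minimum mean of 1 FPKM, no minimum, and scaling by median ratios, quantiles or protein-coding totals. Further alternatives were no trend, the Ballgown-like model, the replicate block, rows of 1 symbol summed, the fold change rule, and each library left out. Chosen after the data were seen were the removal of joined rows and the addition of the rows holding CCNA2, RRM2 and FEN1. The fit was tested on simulated data. The members and lists were chosen with earlier results of these data known. Named in full are, in each list of members, the gene with the highest mean and that with the largest difference, every member past the threshold, and MKI67, PCNA, TOP2A, CCNB1, CDK1 and MCM2. From the other lists these are at most 4 genes past the threshold with the largest difference, and FOXM1, MYBL2, E2F1 and RB1. Python 3.11.15 with pandas 2.3.3, numpy 2.4.6, scipy 1.17.1 and matplotlib 3.10.9 was used. A marker of the leukocyte list is not reported here.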

Additional observations from a re-analysis of the deposited data

How the results depend on the processing

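With 2 parental libraries, every value rests on few samples, and the number of reads behind FPKM is unknown. The number of members called was 1 (TOP2A). It became 0 with no filter (adjusted p of TOP2A 0.0665), with the Ballgown-like model (0.247), with the replicate block (0.146) and under the fold change rule. It became 2 with quantile normalization, where NDC80 was added (0.0404). Over the libraries left out in turn it ran from 0 to 1. Calls over all genes went from 1775 to 14 with the Ballgown-like model and 1123 under the fold change rule. They went to 0 with the replicate block, where 1869 genes were lower and 1676 higher at an unadjusted p under 0.05. With an HCC827/GR library left out they ran from 489 to 962. Without the filter 757 of 1261 calls were lower, against 924 of 1775. Over all genes tested, the deviations of same-numbered libraries from their group means correlated at 0.03 for number 2 and 0.01 for number 3, so the numbers were not taken to pair the libraries. Among the members, though, number 3 was the highest HCC827/GR library in 36 of 51 and the higher parental library in 43 of 51. The block, which has no parental partner for HCC827/GR replicate 1, gave medians of -0.18 for mitosis and -0.27 for replication genes.

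The median of the mitosis genes ran from -0.29 to -0.073, that of the replication genes from -0.56 to -0.10 and their distance from 0.011 to 0.34 with a library left out, and no other alternative moved them beyond the spread between libraries. The sign was the same under all 15 alternatives in 36 of 51 members. It turned for BIRC5 (-0.97) and POLE2 (-0.10) with the Ballgown-like model and for PRC1 (0.034) with the block. With a library left out, the range crossed 0 for BIRC5 (-0.76 to 1.12), MAD2L1 (-0.21 to 1.33), POLE2 (-0.17 to 0.27), PRC1 (-0.21 to 0.034), CCNB1 (-0.22 to 0.083), CCNB2 (-0.17 to 0.11), CDC20 (-0.21 to 0.14), AURKB (-0.30 to 0.20), NUSAP1 (-0.46 to 0.072), UBE2C (-0.69 to 0.052), MCM3 (-0.54 to 0.014), MCM4 (-0.48 to 0.12), MCM6 (-0.17 to 0.060), RFC3 (-0.22 to 0.041) and RRM1 (-0.20 to 0.054). The causes were not tested.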
